A study of Rattus norvegicus with 3 samples.

Results

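The 36 integrin and laminin subunit genes of the motor cortex were followed in 3 rats after cerebral ischemia and reperfusion, in which blood flow to brain tissue is interrupted and then restored. They were chosen by symbol, as the genes named as an integrin alpha or beta subunit or as a laminin alpha, beta or gamma chain, and are 25 integrin and 11 laminin genes among 26715 gene symbols on 30957 rows. The animals were male Sprague-Dawley rats numbered 19, 35 and 70, all with ischemia and reperfusion and all labelled 8 weeks, which the labels do not tie to either an age or a time since the operation. They form 1 group, no untreated or sham-operated animals were analysed here, and every comparison below is between rats, between genes within a rat, or between the members and all other genes. Messenger RNA was sequenced and the level of a gene is given in FPKM, a fragment count divided by the gene's length and the library's size. Each rat gave 1 library, so a difference between rats has no replicate check of its own. The 36 genes lie on 14 chromosomes of the rat build Rnor 6.0, by the coordinates in the files.

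Integrins are receptors built of 1 alpha and 1 beta subunit that span the cell membrane and couple the matrix, or a counter-receptor on another cell, to the actin cytoskeleton. Laminins are secreted trimers of an alpha, a beta and a gamma chain that assemble the basement membrane. In the brain, laminins lie in the basement membranes of vessels and of the pia, integrins of endothelium, astrocyte endfeet and mural cells bind them there, and integrins with the beta2 subunit are found on microglia and blood leukocytes.

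The libraries differed in makeup before any member is considered. The low FPKM values step by whole fragments, and per kilobase each fragment added 0.0643, 0.0608 and 0.0623 FPKM in rats 19, 35 and 70. The weight of a fragment was thus close to equal. It may include the authors' normalization, which is not given, so sequencing depth itself was not established. Rat 35 stood apart: all 8 neuronal markers were lowest there, with a summed level of 57.7 FPKM against 1422 in rat 19 and 2111 in rat 70, so the neuronal part of the labelled tissue was low in that library. Snap25, a synaptic vesicle release protein, was at 383, 12.2 and 564 FPKM in rats 19, 35 and 70. All 10 markers of microglia and macrophages were highest in rat 35 (summed FPKM 1119, 3078 and 939.9 in rats 19, 35 and 70), as were all 6 markers of fibroblasts and meninges with a mean of 1 FPKM or more (265, 2781 and 255, with Col1a2 listed at 0), all 7 of pericytes and smooth muscle (126, 321 and 85.7) and 6 of 7 of brain endothelium (182, 286 and 133). The complement gene C1qa was at 310.1, 761 and 300.3 FPKM and the collagen Col3a1 at 81.7, 1086 and 68.3. Astrocyte markers summed to 3375, 1139 and 2102 FPKM, oligodendrocyte markers to 4031, 3305 and 5447, oligodendrocyte precursor markers to 84.8, 226 and 108 and epithelial markers to 7.42, 7.65 and 3.84. The part of these markers in the results below was not tested. In bulk tissue, fewer cells of a type and less RNA per cell cannot be told apart.

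Most integrin and laminin subunits were far apart between the rats and highest in rat 35. Of the 36 genes, 31 had a mean FPKM of 1 or more, and in 24 of these the highest and the lowest rat differed by more than 2-fold, on the log2(FPKM + 1) scale that understates the differences of low genes. Over all 13968 genes with such a mean, 42.5% did so. Rat 35 held the highest value of 25 of the 31 members (45.5% of all genes), rat 19 that of 3 (24.6%) and rat 70 that of 3 (29.9%). The lowest value lay in rat 70 for 19 members (44.0% of all genes), in rat 19 for 10 (19.4%) and in rat 35 for 2 (36.6%). Leaving out rat 35 left 3 of 29 members over 2-fold apart, Itga6, Itga8 and Itgb8, a share of 10.3% beside 10.9% of 13809 genes, so the wide spread of the members rested on that library. The count was 17 of 21 integrins and 7 of 10 laminins. Their median deviation from the 3-rat mean, in log2(FPKM + 1), was -0.35, 0.93 and -0.62 for integrins and -0.44, 1.24 and -0.62 for laminins in rats 19, 35 and 70, against 0.02, 0.06 and -0.08 over all genes. Without rat 35 the values in rats 19 and 70 were 0.17 and -0.17 for integrins and 0.02 and -0.02 for laminins, so that neither family set those rats far apart. Without rat 70 the value in rat 35 was 0.54 for integrins and 0.84 for laminins. With all 25 integrins counted, without the minimum, their values in rats 19 and 35 were -0.18 and 0.59. The members within 2-fold on this scale included Itga7, Itga9, Itga11, Itgae, Lama3 and Lamb2. Between the highest and lowest rat, FPKM differed by 1.63-fold (Lama3) to 19.2-fold (Itgb7), with a median of 4.02-fold over the 31. Of the 31, 3 reached a mean of 1 only through their highest rat, Itgb3 and Itgb7 among them. Among all 36 genes, without the minimum, 24 (66.7%) were over 2-fold apart, beside 33.2% of all genes above 0 in any rat.

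**Figure D1:**
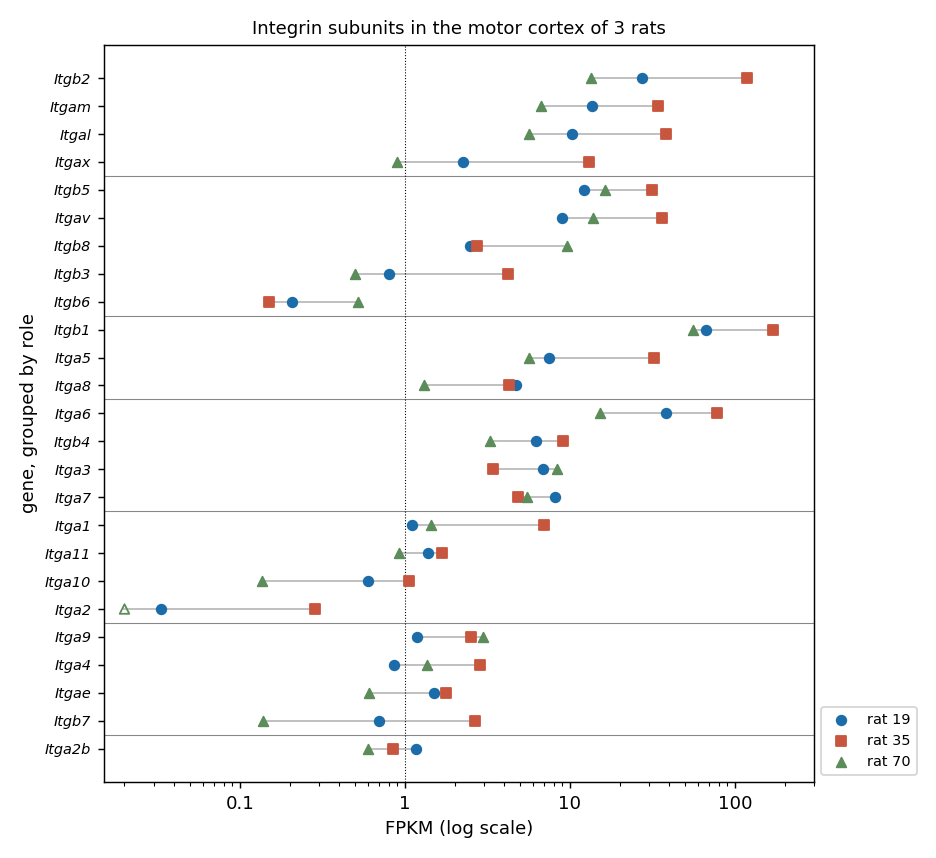
FPKM of the 25 integrin subunits on a log axis, 1 row a gene, grouped by role with a line between groups and a dotted line at 1 FPKM; each point is 1 rat, and the open triangle is the value 0 of Itga2 in rat 70, drawn at the left edge. The squares of rat 35 lie farthest right in most rows, but not for Itgb8, Itga3, Itga7, Itga8, Itga9, Itgb6 and Itga2b.

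Among integrins the beta1 subunit was the most abundant in every rat. Itgb1, the shared partner of most alpha subunits (chromosome 19, 61677542 to 61725535) averaged 97.5 ± 62.8 FPKM (SD, n = 3) and lay above 95.4% of the 13968 genes. Below it the order depended on the rat: the leukocyte subunit Itgb2 (53.0 ± 57.0) stood ahead of Itga6 (43.8 ± 31.7) in 1 of 3 rats, and Itgb5, Itgav, Itgam and Itgal, with means of 19.9, 19.6, 18.2 and 18.0 FPKM, followed each other in the stated order in only 2 of 3 rats at each step. Itga5 (15.1 ± 14.8) exceeded Itgb4 (6.20 ± 2.89) in all 3 rats. Itgb4, Itga3 (6.19 ± 2.52) and Itga7 (6.15 ± 1.75) could not be ordered, each neighbour being ahead in 1 of 3 rats. Itgb8 changed place most: it ranked 13th, 17th and 6th of the 25 in rats 19, 35 and 70.

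The beta2 leukocyte integrins showed the widest spread of the subunit groups, with all 4 measured genes highest in rat 35 and lowest in rat 70. Itgb2, the beta subunit common to them (chromosome 20, 11777783 to 11815647), was at 27.2, 118 and 13.4 FPKM in rats 19, 35 and 70, an 8.80-fold range. Itgal, the alpha subunit of LFA-1, which binds ICAMs on endothelium, was at 10.4, 38.0 and 5.62 FPKM. Itgam, the alpha subunit of complement receptor CR3 and a common microglial marker, was at 13.7, 34.3 and 6.66 FPKM. These genes therefore kept 1 order of the rats, 35 above 19 above 70. Itgax, the alpha subunit of CR4, known from dendritic cells and from activated microglia, was lower and spread further, at 2.24, 13.1 and 0.893 FPKM, a 14.7-fold range. In the files' annotation (Rnor 6.0) the Itgam gene at chromosome 1, 199495298 to 199623960, spans Itgax at 199555722 to 199576932 on the same strand, so fragments of the shared stretch could be counted to either gene and the split between them is uncertain. The median deviation of the 4 genes from the 3-rat mean was -0.35, 1.56 and -1.17 (log2) in rats 19, 35 and 70, beside 0.02, 0.06 and -0.08 over all genes. The distance between the highest and the lowest rat was 2.73, and 0.86 between rats 19 and 70 once rat 35 was left out. Neutrophil and monocyte markers, whose cells also carry beta2 integrins, summed to 17.1, 145 and 7.18 FPKM in rats 19, 35 and 70, and all 3 with a mean of 1 FPKM or more were highest in rat 35; their part was not tested.

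The upstream windows of Itgam and Itgax are shown because these neighbours share an order of the rats while differing in listed level, with the uncertain split named above. Each is the 250 bases before the gene's start in RefSeq on the build GRCr8, 5′ to 3′ on the gene's strand (Itgam at chr1:192089342-192089591, plus strand; Itgax at chr1:192149799-192150048, plus strand), with letters searched on both strands in capitals: the PU box GAGGAA, known as the core of sites of the myeloid factor PU.1, the GC box GGGCGG, the TATA box TATAAA and the AP-1 site TGANTCA.
Itgam: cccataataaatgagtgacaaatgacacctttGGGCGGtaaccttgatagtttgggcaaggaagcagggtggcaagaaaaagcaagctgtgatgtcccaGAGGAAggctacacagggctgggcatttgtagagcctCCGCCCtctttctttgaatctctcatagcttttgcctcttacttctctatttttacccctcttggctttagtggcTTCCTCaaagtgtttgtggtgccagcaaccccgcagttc
Itgax: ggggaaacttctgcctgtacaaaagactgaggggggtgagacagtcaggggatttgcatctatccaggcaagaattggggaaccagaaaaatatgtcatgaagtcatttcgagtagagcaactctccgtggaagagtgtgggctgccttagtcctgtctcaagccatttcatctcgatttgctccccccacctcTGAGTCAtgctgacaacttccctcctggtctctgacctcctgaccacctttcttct
The Itgam window held the PU box letters at 151 and 39 bases before the start, and GC box letters at 218 and 114. The Itgax window held none of these and 1 match to the AP-1 letters at 56 bases. These matches are a description of the windows and do not show binding.

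Subunits that pair with alphaV were divided over the rats. Itgav, which binds the RGD sequence of vitronectin, fibronectin, osteopontin and latent TGF-beta, was at 8.998, 36.1 and 13.8 FPKM in rats 19, 35 and 70. Itgb5, a widely expressed partner, followed it at 12.1, 31.3 and 16.4 FPKM. Itgb3, a beta subunit of platelets and of growing endothelium, was much lower, at 0.797, 4.22 and 0.501 FPKM. All of these were highest in rat 35, and for Itgav and Itgb5 the lowest rat was 19, not 70. Itgb8, the partner that activates latent TGF-beta on glia (chromosome 6, 147094097 to 147172813), was instead at 2.48, 2.74 and 9.66 FPKM, with rat 70 high and rats 19 and 35 close together. It rested on 150, 175 and 602 fragments. Itgb6, an epithelial partner, stayed under 1 FPKM (0.208, 0.150 and 0.521). Of 6 epithelial markers, the keratin Krt5 was listed at 0 in all rats. Cdh1, at 3.27, 4.52 and 0.964 FPKM, and Krt8, at 2.16, 2.79 and 1.40, were highest in rat 35. Epcam, at 1.19, 0.166 and 0.682 FPKM, and Krt18, at 0.798, 0.178 and 0.728, were lowest there. Krt14 was at 0, 0 and 0.0584 FPKM. The alphaV group's median spanned 1.47 (log2) between rats, and 0.57 without rat 35.

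The Itgb8 window is shown because this gene was highest in rat 70, where Itgav, Itgb5 and Itgb3 were not (RefSeq, GRCr8, chr6:146351246-146351495, minus strand, 250 bases before the start, capitals as above).
Itgb8: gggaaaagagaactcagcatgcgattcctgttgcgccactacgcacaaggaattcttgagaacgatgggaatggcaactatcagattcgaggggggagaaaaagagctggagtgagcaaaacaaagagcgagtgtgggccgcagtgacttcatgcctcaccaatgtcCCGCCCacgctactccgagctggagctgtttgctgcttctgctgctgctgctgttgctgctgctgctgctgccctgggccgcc
It held 1 GC box match, at 83 bases before the start, and none of the other letters.

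Itgb1 and the fibronectin receptor alpha subunit were highest in rat 35. Itgb1 was at 67.2, 169.6 and 55.6 FPKM in rats 19, 35 and 70, resting on 3823, 10215 and 3264 fragments. Itga5, whose dimer with beta1 is the classical fibronectin receptor, was at 7.46, 32.2 and 5.67 FPKM, a 5.68-fold range beside 3.05-fold for Itgb1. Rats 19 and 70 lay close together for both genes. Itga8, an RGD receptor subunit of mesenchymal cells that binds nephronectin, differed from them at 4.73, 4.27 and 1.31 FPKM, with rats 19 and 35 alike and rat 70 low. The median of these 3 genes spanned 1.81 (log2), and 0.34 without rat 35.

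The laminin-binding subunits did not share an order of the rats. Itga6, the laminin receptor subunit of endothelium and of several stem cells (chromosome 3, 58443101 to 58515124), was at 38.2, 77.9 and 15.2 FPKM in rats 19, 35 and 70. Itgb4, its partner in hemidesmosomes and on some arteriolar endothelium, was at 6.22, 9.08 and 3.29 FPKM in the same order. Both were lowest in rat 70, and Itga6 was among the 3 members that still differed over 2-fold without rat 35. Itga3, a receptor subunit for laminins with the alpha5 or alpha3 chain, went the other way at 6.88, 3.40 and 8.30 FPKM, lowest in rat 35. Itga7, a laminin receptor subunit of muscle and of arteriolar smooth muscle, was also lowest in rat 35 and highest in rat 19, at 8.13, 4.82 and 5.49 FPKM. Itga3 and Itga7 were the only members with a mean of 1 FPKM or more that were lowest in rat 35. The group's median accordingly spanned 0.54 (log2), 0.62 without rat 35 and 0.084 without rat 70.

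Collagen-binding and lymphocyte-type subunits were low. Itga1, a collagen receptor subunit of mural and mesenchymal cells, was at 1.11, 6.92 and 1.45 FPKM in rats 19, 35 and 70, from 72, 475 and 97 fragments. Its locus contains Pelo on the same strand. Itga11, a fibroblast collagen receptor subunit, was at 1.38, 1.68 and 0.917 FPKM, within 2-fold. Itga10 (0.5995, 1.06 and 0.136) and Itga2 (0.0333, 0.284 and 0) stayed below a mean of 1. Itga2 rested on 2, 18 and 0 fragments. Its value of 0 in rat 70 had a 95% exact Poisson interval of 0 to 0.0596 FPKM, for counting error only. Itga4, the alpha subunit of VLA-4, which binds VCAM1 and fibronectin, was at 0.865, 2.86 and 1.35 FPKM, and its relative Itga9, a receptor subunit for tenascin and osteopontin, at 1.18, 2.5 and 2.96. Itga9 was thus highest in rat 70 and Itga4 in rat 35, and both were lowest in rat 19. Itgb7, the lymphocyte beta subunit, was at 0.692, 2.66 and 0.139 FPKM on 29, 118 and 6 fragments, and its value in rat 70 had a 95% exact Poisson interval of 0.051 to 0.302 FPKM, which covers counting error only. Itgae, its partner on intraepithelial lymphocytes, was at 1.497, 1.78 and 0.607 FPKM, but its locus overlaps 5 other genes with fragments. Of these, Gsg2 lies on the opposite strand and the others on the strand of Itgae. The counting is not stated to use strand, which would separate only Gsg2. The T cell markers summed to 5.80, 10.6 and 1.93 FPKM in rats 19, 35 and 70, and their part in these values was not tested. Itga2b, the platelet alpha subunit, was at 1.17, 0.851 and 0.599 FPKM. The platelet genes Gp1ba, Gp5 and Ppbp were listed at 0 in all rats. The list of 6 platelet genes, Itga2b itself among them, summed to 13.7, 88.3 and 14.3 FPKM, nearly all of it Pf4 (12.5, 87.5 and 13.7). The members at a mean under 1 FPKM were Itga2b, Itga10, Itgb6, Itga2 and Lamb3, with single values between 0 and 1.17. The median of the collagen-binding genes with a mean of 1 FPKM or more spanned 1.09 (log2), 0.67 with Itga10 and Itga2 included and 0.047 without rat 35, and that of the 4 alpha4-related genes 0.77, and 0.34 without rat 35. Of the other members, Itgb5, Itgb4 and Lama4 each overlap a gene on the opposite strand and Itga6 a small nucleolar RNA on its own.

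**Figure D2:**
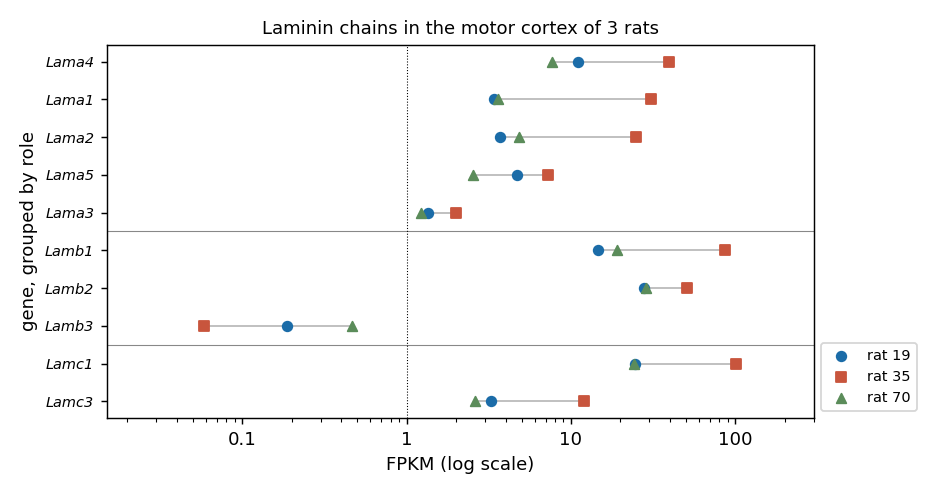
FPKM of 10 laminin chains on a log axis, 1 row a gene, with alpha, beta and gamma chains separated by lines and a dotted line at 1 FPKM; each point is 1 rat. Rat 35 is highest in all 9 chains drawn that have a mean of 1 FPKM or more, and rats 19 and 70 lie close together in most rows.

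Laminin alpha chains, which set the receptor binding of a trimer, were all highest in rat 35. Lama1, the alpha chain of the pial and early embryonic basement membrane, was at 3.42, 30.8 and 3.58 FPKM in rats 19, 35 and 70, the widest range among the laminins with a mean of 1 FPKM or more. Lama2, the chain of muscle and of the astroglial and mural side of brain vessels, was at 3.71, 25.03 and 4.83 FPKM. Lama4, a chain of endothelial basement membranes, was the most abundant at 10.96, 39.4 and 7.66 FPKM. Rats 19 and 70 were within a few FPKM of each other for all of these and rat 35 lay far above. Lama5, the other endothelial chain, spread less, at 4.67, 7.25 and 2.55 FPKM. Lama3, an epithelial chain, was at 1.34, 2.01 and 1.23 FPKM. The smallest length that fitted its values was 1726 bp, the shortest of all members. At that length its values rested on 36, 57 and 34 fragments. The alpha chains' median deviation was -0.43, 1.33 and -0.63 (log2) in rats 19, 35 and 70. It spanned 1.96, and 0.071 without rat 35.

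Beta and gamma chains were the most abundant laminin transcripts. Lamc1, the gamma chain of most laminins (chromosome 13, 70656727 to 70783515), was at 24.6, 101 and 24.3 FPKM in rats 19, 35 and 70 (50.04 ± 44.3, SD, n = 3). Lamb1, the most widespread beta chain (chromosome 6, 50528823 to 50596079), was at 14.6, 86.1 and 19.1 FPKM (39.9 ± 40.1). Lamb2, the beta chain of mature vessels and synapses, differed less, at 27.7, 50.9 and 28.7 FPKM (35.8 ± 13.1). Rats 19 and 70 hardly differed for Lamc1 and Lamb2, while Lamb1 had the wider gap to rat 35, with 5.91-fold between its highest and lowest rat beside 1.84-fold for Lamb2. The order of levels followed: Lamb2 was the first of the 11 chains in rats 19 and 70 and the third in rat 35, behind Lamc1 and Lamb1. Lamc3, a gamma chain described in brain, was at 3.25, 11.96 and 2.60 FPKM. Lamb3, an epithelial beta chain, was low at 0.186, 0.0587 and 0.467 FPKM on 12, 4 and 31 fragments. The median of Lamb1 and Lamb2 spanned 1.67 (log2), 0.85 with Lamb3 included and 0.21 without rat 35. The gamma chains' median spanned 1.83, and 0.24 without rat 35.

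The windows of Lamb1 and Lamc1 are shown because these chains share trimers and stood at the top of the laminin levels in rat 35 (RefSeq, GRCr8, 250 bases before the start; Lamb1 at chr6:53562846-53563095, plus strand; Lamc1 at chr13:68051987-68052236, minus strand; capitals mark the letters named above).
Lamb1: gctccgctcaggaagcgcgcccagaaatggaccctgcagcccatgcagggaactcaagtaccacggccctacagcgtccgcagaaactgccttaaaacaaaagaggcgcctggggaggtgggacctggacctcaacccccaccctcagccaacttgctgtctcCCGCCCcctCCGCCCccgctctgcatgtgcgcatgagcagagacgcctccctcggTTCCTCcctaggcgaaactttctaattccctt
Lamc1: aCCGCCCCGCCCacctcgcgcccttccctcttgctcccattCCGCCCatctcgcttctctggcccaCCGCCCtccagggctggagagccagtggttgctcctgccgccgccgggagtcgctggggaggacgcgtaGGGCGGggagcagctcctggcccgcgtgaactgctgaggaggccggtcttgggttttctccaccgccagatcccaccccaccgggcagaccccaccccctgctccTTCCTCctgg
Lamb1 had GC box letters at 87 and 78 bases before its start and Lamc1 at 249, 244, 209, 184 and 115, the first pair overlapping. Each also had 1 match to the PU box letters, at 32 and at 10 bases. Windows were found for 28 of the 36 members. Of these, 14 (50%) held the GC box letters, against 32.4% of all 27457 windows, and 11 (39.3%) the PU box letters, against 23.2%. The TATA box was in 2 (Itgb7 and Lama4; 7.14%), against 13.1%, and the AP-1 letters in 2 (Itgax and Lama3), against 6.36%. The members with the GC box letters include Itgb8, Itga3 and Itga9, which were not highest in rat 35, as well as Itgb1, Itgav, Itga5 and Lama2, which were. The median GC content was 58.2% over member windows and 52.0% over all windows.

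**Figure D3:**
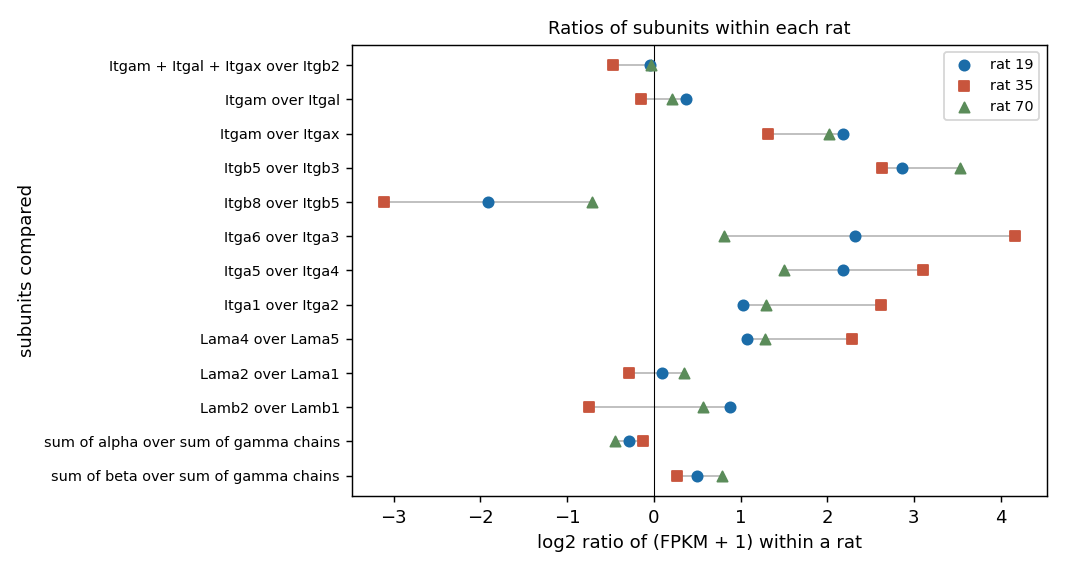
Log2 ratio of FPKM + 1 between subunits measured in the same rat, 1 row a ratio, each point 1 rat; right of 0 the subunit named first was higher. Itga6 over Itga3, Itgb8 over Itgb5 and Lamb2 over Lamb1 have the widest spread over the rats, and Lamb2 over Lamb1 lies left of 0 in rat 35 and right of 0 in rats 19 and 70.

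Because FPKM is a level per length, subunits that pair or are alternatives to each other can be set side by side within a rat. Itgad and Lamb4 had no values and are not in the sums. Folds below are of FPKM, and the test used log2(FPKM + 1). The summed alpha subunits Itgam, Itgal and Itgax came to 26.3, 85.4 and 13.2 FPKM in rats 19, 35 and 70, against 27.2, 118 and 13.4 FPKM for Itgb2, or 0.97, 0.72 and 0.98 of it. Of the beta2 alpha subunits, Itgam exceeded Itgax in all rats, by 6.10-, 2.61- and 7.46-fold. It exceeded Itgal in rats 19 and 70 but not in rat 35 (1.32-, 0.90- and 1.19-fold). Because the loci of Itgam and Itgax overlap on the same strand, the ratios that hold either gene are uncertain. Among alphaV partners, Itgb5 exceeded Itgb3 in all rats, and Itgb8 was 0.21, 0.09 and 0.59 of Itgb5. Of the laminin receptors, Itga6 was 5.56-fold, 22.9-fold and 1.84-fold Itga3 in rats 19, 35 and 70, the ratio that differed most between rats.

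Laminin ratios also shifted with the rat. Summed over chains, the alpha genes reached 24.1, 104 and 19.8 FPKM and the gamma genes 29.7, 114 and 27.5 FPKM, so that alpha over gamma was 0.81, 0.92 and 0.72 in rats 19, 35 and 70, and the beta sum was 1.43-, 1.20- and 1.76-fold the gamma sum. Lama4 exceeded Lama5 by 2.35-, 5.43- and 3.01-fold. Lamb2 was 1.90- and 1.502-fold Lamb1 in rats 19 and 70 and 0.59-fold in rat 35. Lama2 and Lama1 were nearly equal (1.08-, 0.81- and 1.35-fold). Of 13 ratios, 10 lay on the same side of equality in all 3 rats, each with p = 0.25 when signs were flipped in every way over 3 rats (exact permutation test, two-sided), the smallest p this design allows, and 0.325 after Benjamini-Hochberg adjustment over the 13. None could therefore reach a threshold of 0.05.

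**Figure D4:**
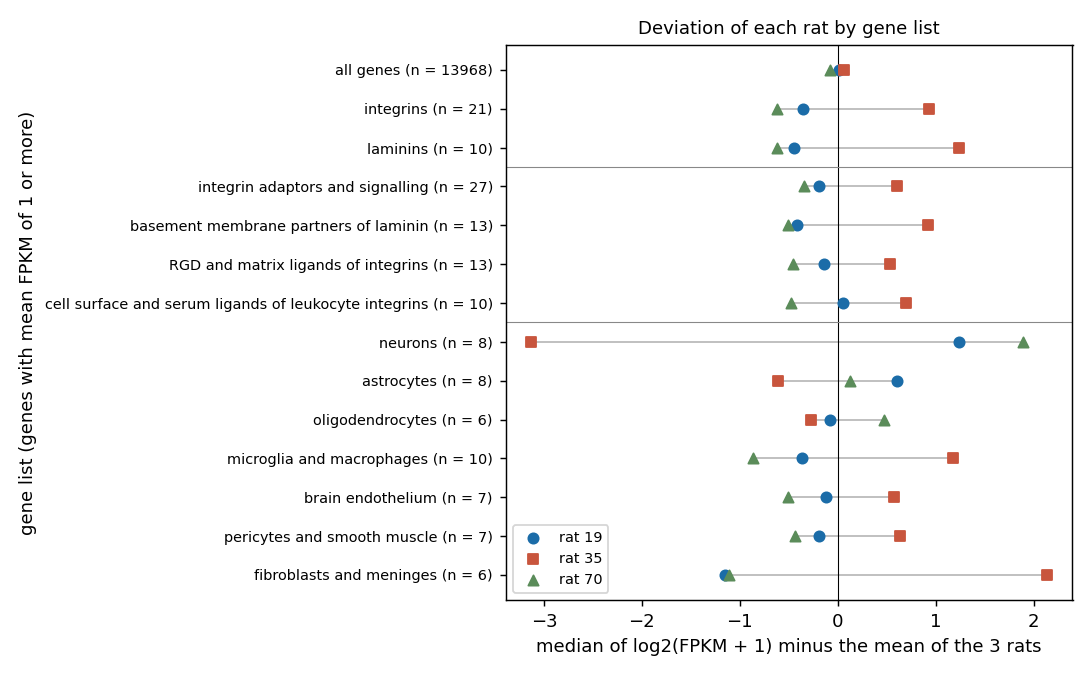
Median over the genes of a list of log2(FPKM + 1) minus the gene's mean over the 3 rats, for all genes, members, related lists and cell type markers, each point 1 rat and n the number of genes with a mean of 1 FPKM or more. Rat 35 lies right of the other 2 for integrins (0.93), laminins (1.24) and their related lists, as for microglial, vascular and fibroblast markers, and far left for neuronal markers.

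Genes that work with these subunits were taken from lists and mostly had rat 35 as the highest rat too. Of 27 adaptor and signalling genes with a mean of 1 FPKM or more, 17 (63.0%) differed over 2-fold, against 42.5% of all genes, and 19 were highest in rat 35, against 45.5%. Without rat 35, 1 adaptor gene differed over 2-fold, with 10.9% of all genes doing so. Forms of blood cells were among the 3 genes with the largest SD: Fermt3, the kindlin that activates integrins in blood cells, was at 25.6, 106 and 14.3 FPKM in rats 19, 35 and 70, and Parvg, the parvin of leukocytes, at 7.04, 48.4 and 3.81. Both kept the order of Itgb2. Ptk2b, a focal adhesion kinase abundant in neurons, was lowest in rat 35 (72.3, 14.0 and 181), whereas the broadly expressed Ilk, the integrin-linked kinase, varied little (86.1, 116 and 73.8). Rap1b, a small GTPase that drives integrin activation, was at 83.1, 224 and 76.1 FPKM, the first of the list by its mean but behind Ilk in rat 19 and behind Ptk2b in rat 70.

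Basement membrane partners of laminin had 12 of 13 genes highest in rat 35 (45.5% of all genes) and 8, or 61.5%, over 2-fold apart (42.5% of all genes); without rat 35 the count was 1 (10.9% of all genes). Col18a1, a vessel collagen, was at 25.01, 279 and 30.3 FPKM in rats 19, 35 and 70, Fbln1, a matrix glycoprotein, at 32.6, 219.5 and 27.1, and Nid2, which links laminin to collagen IV, at 8.43, 51.9 and 7.49. Col4a1, a collagen IV chain of all basement membranes, was at 45.9, 218 and 40.6 FPKM and Sparc, a collagen-binding protein, at 742, 1565 and 827. Rat 35 was above the others in each of these, by the smallest fold for Sparc.

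Of 13 matrix ligands of integrins, 7 (53.8%) were over 2-fold apart, a share near the 42.5% of all genes, and 3 were so without rat 35 (10.9% of all genes). Rat 35 was highest for 10 of the 13 (45.5% of all genes). Spp1, osteopontin, a ligand of alphaV, alpha4 and alpha9 integrins, had the widest range, at 224, 4161 and 126 FPKM in rats 19, 35 and 70. Fn1, fibronectin, was at 21.6, 176 and 46.6 FPKM, in the order of Itgav rather than that of Itga5, and Tgfb1, whose latent form alphaV integrins activate, at 31.5, 104 and 17.1. Tnc, tenascin-C, a ligand of alpha9, ran otherwise at 29.1, 18.0 and 2.92, highest in rat 19. Of 10 ligands of leukocyte integrins, 8 were over 2-fold apart (42.5% of all genes), 2 without rat 35 (10.9%), and 7 were highest in rat 35 (45.5%). Icam2, an endothelial ligand of LFA-1, was at 6.36, 16.2 and 1.92 FPKM, while Icam5, the neuronal ICAM, and Thy1, a surface protein of neurons, were lowest in rat 35 at 45.5, 8.01 and 91.4 and at 332, 42.6 and 529 FPKM. Jam3, a junction protein, was highest in rat 70 (25.6, 27.0 and 45.2).

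Set against markers of cells known to carry them, some members stayed highest in rat 35 and others did not. Itgb2 was 2.43%, 3.84% and 1.43% of the summed microglia and macrophage markers in rats 19, 35 and 70, and Itgax 0.200%, 0.426% and 0.0951%, both still highest in rat 35. Itgal was 0.926%, 1.23% and 0.598%, also highest in rat 35. Itgam was 1.22%, 1.11% and 0.709%, no longer highest there. Of the sum of fibroblast and meningeal markers, Lama1 was 1.29%, 1.11% and 1.41% and Lama2 1.40%, 0.900% and 1.89%, lowest in rat 35. Lamb1 was 5.49%, 3.10% and 7.51% of that sum, also lowest in rat 35. Of the sum of pericyte and smooth muscle markers, Itga1 was 0.882%, 2.16% and 1.69%, highest in rat 35. Lamb2 was 22.0%, 15.9% and 33.5% of it, lowest in rat 35. Of the sum of endothelial markers, Lama4 was 6.02%, 13.8% and 5.76% and Itga6 21.0%, 27.3% and 11.5%, highest in rat 35, while Lama5 was 2.57%, 2.54% and 1.92%. Itgb8 was 0.0735%, 0.240% and 0.459% of the astrocyte marker sum, which itself was 3375, 1139 and 2102 FPKM. These shares depend on the markers chosen, and the part of cell makeup in the members' values was not tested.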

How the data were processed

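Messenger RNA from the motor cortex of 3 rats (1 group) was analysed. Per the series' design text and the file headers, the authors counted fragments per gene, normalized them and deposited FPKM values calculated with a Perl script. HISAT2 2.0.4, StringTie 1.3.0 and Rnor 6.0 appear, with no role given, among the submitters' processing notes. The normalization and strand setting are not given in the sources used here. The labels give each rat a number; nothing else says how the samples were taken.

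FPKM was used as deposited with 1 row per symbol, the row with the highest mean. Values were analysed as log2(FPKM + 1), a pseudocount of 1, over genes whose mean FPKM reached 1. "Over 2-fold" is a difference above 2-fold between the highest and lowest rat on that scale. Fragments and gene lengths were recovered from the low values: a length up to 20000 bp giving whole fragments in all rats, within 0.002 plus a small allowance at high counts, was found for all 36 members and for 100% of 1000 sampled genes, against 3.7% after random changes. Effective depth, which includes any factor of the authors' normalization, came to 15.6, 16.5 and 16.0 in units of 1000000 fragments. Exact zeros can be failed estimates. With 1 group no test between groups was possible; ratios within a rat were tested with a two-sided exact sign-flip permutation test. Scripts were tested on simulated data. The members, lists and ratios were chosen with earlier results of these data known. Named genes were the members, of which 1 is counted but not reported here by its values, and in each related list the 3 with the highest mean and the 3 with the largest SD. Alternatives were a pseudocount of 0.1, minima of 5 and none, median-of-ratios scaling, rescaling each rat to a sum of 1000000 and leaving out each rat. Sequences are from RefSeq (GRCr8) and their coordinates are not those of the files. Python 3.11.15, pandas 2.3.3, numpy 2.4.6 and scipy 1.17.1 were used.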

Additional observations from a re-analysis of the deposited data

How the results depend on the processing

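The counts and deviations are those of the 3 rats, and rat 35 decided most of them. No paired analysis was possible because the samples form 1 group. No symbol among the members stood on several rows, so the sum over rows was not run. Rescaling to a sum of 1000000 moved the median gene by 0.81, 0.85 and 0.96 (log2) in rats 19, 35 and 70, because the deposited sums are below 1000000, and median-of-ratios scaling by -0.03, -0.07 and 0.08; neither changed the highest rat of any of the 31 members with a mean FPKM of 1 or more, and the lowest rat changed for Lamc1 under both and for Lama3 under the sum scaling. Without each rat in turn, the members over 2-fold apart, 24 with all rats, numbered 3 to 22, lowest without rat 35. Their share, 77.4% with all rats, was 73.3%, 10.3% and 59.4% without rats 19, 35 and 70. Over all genes the share was 42.5% with all rats, and 37.3%, 10.9% and 26.2% without rats 19, 35 and 70. With 2 rats left, each member is highest in 1 and lowest in the other, so counts of highest or lowest rat rise in part for that reason. Members highest in rat 19, 3 with all rats, numbered 5 to 18, and those highest in rat 70, also 3, numbered 4 to 11. Members lowest in rat 19 (10) numbered 11 to 27 and in rat 35 (2) 4 to 5. With a mean of 5 FPKM or more, 1 member was highest in rat 19, 1 in rat 70, 6 were lowest in rat 19 and 11 in rat 70. With every member above 0, 5 were highest in rat 70 and 4 lowest in rat 35. Shares over all genes were not computed for these alternative counts of highest and lowest rat. The distance (log2) of the highest from the lowest rat ranged, leaving out each rat, from 0.86 to 2.73 for beta2 (2.73 with all rats), 0.57 to 1.42 for alphaV (1.47), 0.34 to 1.59 for beta1 (1.81), 0.084 to 0.62 for laminin-binding (0.54) and 0.047 to 1.09 for collagen-binding subunits (1.09), and from 0.071 to 2.16 for alpha (1.96), 0.21 to 1.67 for beta (1.67) and 0.24 to 1.93 for gamma chains (1.83). It was 0.77 for the alpha4 and alpha9 group, 0.34 (without rat 35) to 0.87 leaving out each rat, and 1.22 with a pseudocount of 0.1. For related lists it ranged from 0.26 to 0.97 for adaptors (17 genes over 2-fold became 1 to 15), 0.17 to 1.77 for basement membrane partners (8 became 1 to 7), 0.38 to 1.13 for matrix ligands (7 became 3 to 7; 2.32 at a mean of 5 FPKM or more) and 0.34 to 1.40 for leukocyte ligands (8 became 2 to 8; the distance was 1.18 with all rats and 0.72 with every gene above 0). The mean log2 ratio of Lama2 over Lama1, 0.05, turned to -0.10 without rat 70, in a range of -0.10 to 0.22. That of Lamb2 over Lamb1, 0.23, turned to -0.092 without rat 19, in a range of -0.092 to 0.72. In each ratio only rat 35 lay below equality, at -0.29 and -0.75 (log2), and the cause of that was not tested.
Itga10, Itga2, Itga2b, Itga4, Itgae, Itgb3, Itgb6, Itgb7, Lama3 and Lamb3 had under 50 fragments in at least 1 rat, which limits their order over the rats.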
